A study of Homo sapiens with 8 samples.

Results

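The genes described are 31 p53 targets and cyclin-dependent kinase (CDK) inhibitors, picked by symbol as known members of these groups, with no rule on their values, out of 34415 gene symbols in the count table. They were grouped by role into 10 genes of cell cycle arrest, 10 of apoptosis, 7 of DNA repair and redox control, 3 of feedback on p53, and the secreted factor GDF15. RNA was sequenced from HaCaT, an established line of immortalized human skin keratinocytes. Every culture spent 96 h in 35 mM glucose and was transfected for 48 h, in 4 cultures with small interfering RNA against ETV4 (siETV4) and in 4 with a negative-control RNA (siNC). The labels call the 4 cultures of a group independent biological replicates, from passages 21 to 33 of this one line. Cultures at 5.5 mM glucose, the basal concentration of the medium, were not analysed here, so every value compares the siRNAs within high glucose.

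The transcription factor p53 is held low by the ubiquitin ligase MDM2, itself a p53 target, and after DNA damage or other stress it raises genes that stop the cell cycle, repair DNA, lower oxidative stress or start apoptosis. CDK inhibitors bind cyclin-dependent kinases or their cyclins and keep the retinoblastoma protein active. Several of them, CDKN2A and CDKN2B among them, are controlled mainly by signals other than p53. HaCaT cells carry mutant p53, so expression of the listed targets in them need not depend on p53. ETV4 is a transcription factor of the ETS family, whose members bind DNA around a GGA core.

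Promoter windows of 300 bases, from 250 before to 50 after each annotated start, were available from RefSeq (GRCh38.p14) for 25 of the 31 genes. The p53 consensus element, 2 decamers with a spacer of 0 or 1 base and at most 2 mismatches, was found in the windows of AEN, DDB2, FAS and MDM2, which make up 5 of the 39 windows of these genes (12.8%) and compare with 1.34% of all 35116 windows. Both MDM2 windows hold the same element, so by gene the count is 4 of 25. Most of these genes were picked as known p53 targets, so the higher share follows at least partly from that choice and is no independent result. Sequence outside these windows was not searched, so members not named here may hold an element elsewhere. The elements are shown because they are the sequence by which p53 is known to bind its targets. Capitals mark bases that fit the consensus, and lower case inside the element marks a mismatch or the spacer. Flanking bases, where printed, are also in lower case. The FAS element ends in 1 mismatch and the AEN element in 2, and these run into the flank.
MDM2, chr12:68808913-68808952, plus strand: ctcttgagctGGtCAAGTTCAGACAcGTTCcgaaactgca
FAS, chr10:88991299-88991338, plus strand: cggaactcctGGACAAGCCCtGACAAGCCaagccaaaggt
AEN, chr15:88621296-88621335, plus strand: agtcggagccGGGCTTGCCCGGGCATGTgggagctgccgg
DDB2, chr11:47214979-47214999, plus strand: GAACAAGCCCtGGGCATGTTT

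No printed element overlaps the ETS core described next, and AEN is the only gene with both. The MDM2, FAS and AEN elements lie before an annotated start, and the DDB2 element lies from base 6 to base 26 after one. A second search used the ETS core CCGGAA or its reverse complement TTCCGG, since ETV4 is an ETS factor. It was present in 6 of the 39 windows (15.4%), those of AEN, CDKN1A, FDXR, SESN2, TP53I3 and XPC, and in 17.2% of all windows. The match of CDKN1A and the farther match of XPC are shown with the core in capitals, 186 and 201 bases before the annotated starts at their far ends. XPC holds another match, not printed, from 177 to 172 bases before the same start. A match is a description of these letters and no evidence of binding in HaCaT cells.
CDKN1A, chr6:36678518-36678543, plus strand: gcacgcgaggTTCCGGgaccggctgg
XPC, chr3:14178787-14178812, minus strand: acgtcaatctCCGGAAacgtgaggat

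The 8 libraries held 35057643 to 41657753 counts each, and 1 CPM, the unit of counts scaled to library size, corresponded to 40.1 counts. ETV4 fell from 28.2 ± 5.64 CPM (SD, n = 4) in siNC to 2.61 ± 0.547 CPM (SD, n = 4) in siETV4, a log2 fold change of -3.43 (SE 0.21, edgeR adjusted p 4.64e-05). All 9 keratinocyte markers examined were above 1 CPM in at least 1 library, with summed levels of 3693 to 4198 CPM in siETV4 and 3934 to 4554 CPM in siNC. Of the markers of other cell types, 7 of 8 fibroblast, 5 of 7 melanocyte, 6 of 7 immune and 3 of 5 endothelial genes were under 1 CPM in every library, and PTPRC, MLANA and COL1A2 had no count. The exceptions were COL1A1, MITF, PMEL, CD68, CDH5 and VWF. CD68 had 21.8 to 24.1 CPM in siETV4 and 16.1 to 23.6 CPM in siNC. The endothelial marker CDH5 had 14.7 to 21 CPM in siETV4 and 13.3 to 17.1 CPM in siNC. The fourth siNC library stood apart from the other 3 in a way that went with the GC content of genes, and results that rest on it are given with and without it. In bulk RNA, fewer cells of a kind and less RNA per cell cannot be told apart.

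The levels of the members, compared per gene length as FPKM in the siNC libraries, spanned a wide range. BAX, the pore-forming killer protein of mitochondria, was highest at 57.5 ± 8.06 FPKM (SD, n = 4), followed by GADD45A at 51.0 ± 3.99 FPKM, whose range overlapped that of BAX. DDB2 (41.3 FPKM), PHLDA3 (37.2 FPKM) and CDKN1A (29.8 FPKM) came next. All 5 stood above the other members, and at least 83.7% of the 13572 tested genes were lower than each. A second tier from FDXR (17.5 FPKM) to BTG2 (11.4 FPKM) held 8 genes, among them CDKN1B, CDKN2A, CDKN2B and CDKN2C, with overlapping ranges between neighbours. The ranges separated again between BTG2 and AEN (7.98 FPKM) and between PLK3 (3.99 FPKM) and BBC3 (3.36 FPKM). MDM2 stood at only 1.70 ± 0.469 FPKM (SD, n = 4). FAS, SESN1 and TP53INP1 were lower still, at 0.691, 0.412 and 0.125 FPKM.

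**Figure D1:**
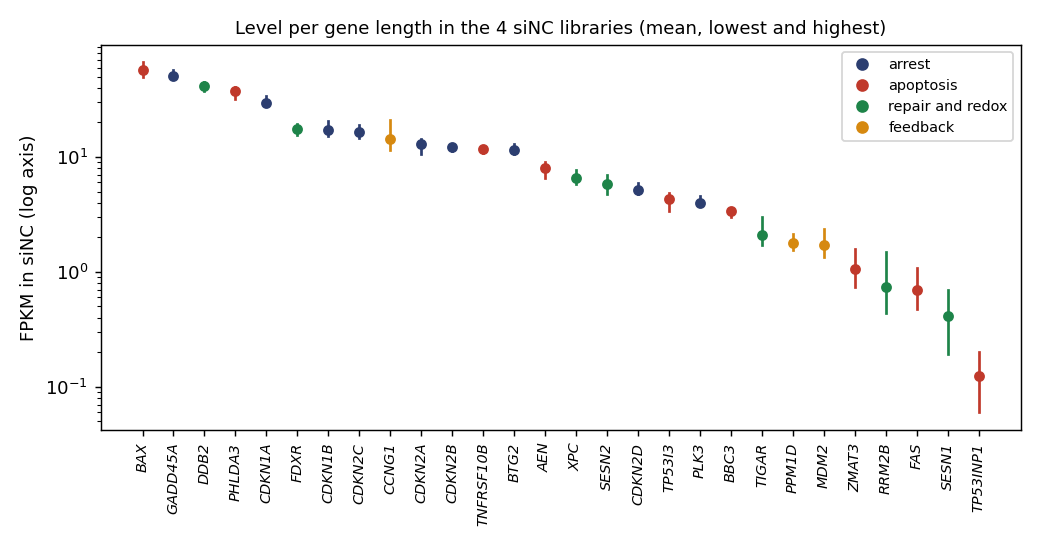
Level per gene length (FPKM, log axis) of the 28 tested members in the 4 siNC libraries, with points at the mean, lines from the lowest to the highest library, and colours for the role. BAX at 57.5 FPKM and TP53INP1 at 0.125 FPKM are the ends of the order, and the longest lines belong to low members such as RRM2B and SESN1.

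The main question was whether any of these genes differed between siETV4 and siNC. Of the 31 genes, 28 had enough counts to be tested, and 0 of the 28 passed an adjusted p under 0.05 by edgeR's quasi-likelihood test, where 0.236% of all 13572 tested genes passed (0.118% higher and 0.118% lower in siETV4). At an unadjusted p under 0.05 there were 5 members higher in siETV4 (17.9%), CDKN2B, GADD45A, TIGAR, TP53INP1 and PPM1D, and 1 lower (3.57%), DDB2. Over all tested genes 5.80% were higher and 6.79% lower at that level (12.6% in all). The members' median log2 fold change was 0.08, and 19 of 28 values were above 0 (67.9%), beside a median of -0.01 and 48.4% above 0 over all tested genes. Only CDKN2B and GADD45A had siETV4 libraries that were all above every siNC library (7.14% of the members, 2.62% of all genes), and 0 members had groups separated the other way (3.93% of all genes).

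**Figure D2:**
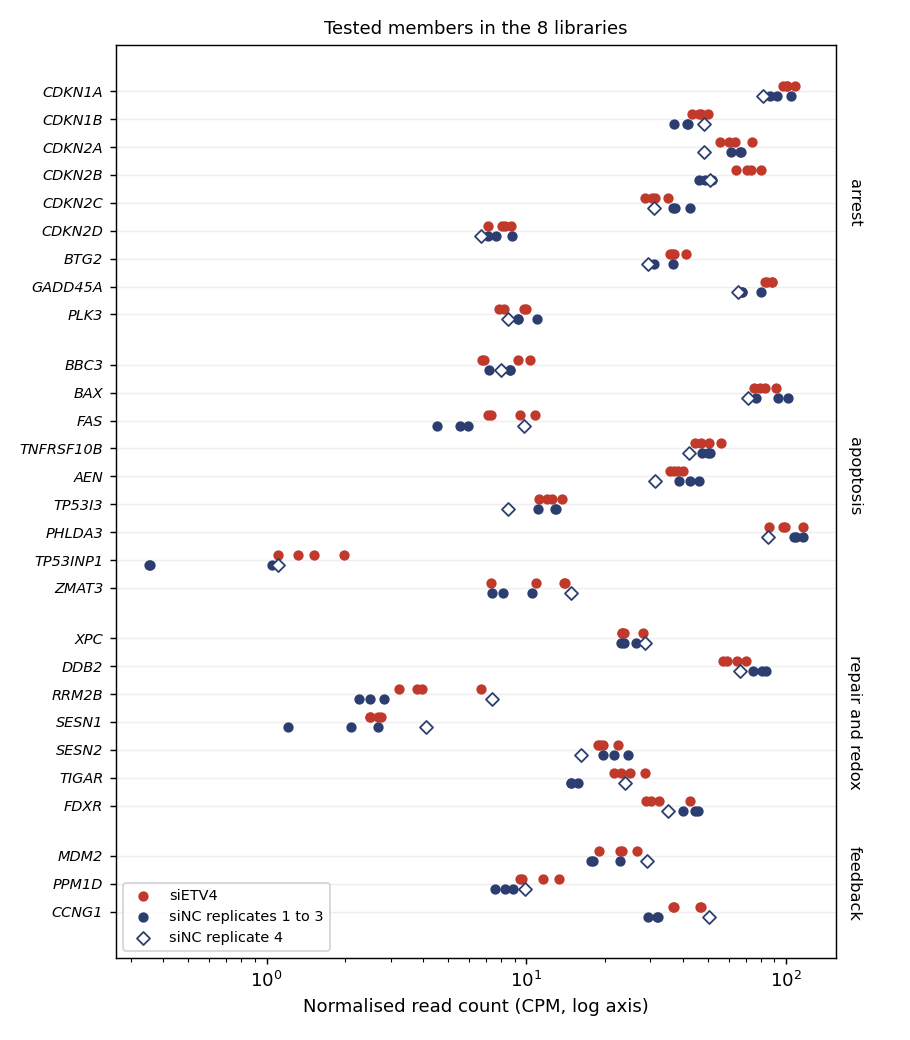
Normalised read counts (CPM, log axis) of the 28 tested members in each of the 8 libraries, by role, with red points for siETV4, blue points for siNC replicates 1 to 3 and an open diamond for siNC replicate 4. The red and blue points of CDKN2B and GADD45A do not overlap, and the diamond is the highest siNC point for low-GC genes such as RRM2B, TIGAR and CCNG1.

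Among the CDK inhibitors, CDKN2B, which encodes p15INK4b, an inhibitor of CDK4 and CDK6, had the smallest p of all members. Its levels were 73.1, 64.1, 70.7 and 80.3 CPM in the siETV4 libraries and 51.7, 48.5, 46.0 and 50.8 CPM in the siNC libraries. The lowest siETV4 library lay above the highest siNC library, and siNC replicate 4 stood within the range of the other siNC libraries. The means of 72.1 ± 6.66 and 49.3 ± 2.57 CPM (SD, n = 4 each) gave a log2 fold change of 0.55 (SE 0.10, 95% interval 0.33 to 0.77), a 1.46-fold difference. The edgeR adjusted p of 0.0551 missed the threshold narrowly. It ranged from 0.00012 with DESeq2 to 0.247 without siNC replicate 3 over 21 alternative fits, of which 7 passed, and the log2 fold change stayed between 0.36 and 0.60 in them. CDKN2B lies at chr9:22002903-22009313 on the minus strand (GRCh38.p14), and the long noncoding gene CDKN2B-AS1 overlaps it on the opposite strand. No source used here states whether counting was strand-specific, and reads of the pair cannot be told apart. CDKN2B-AS1 held 61, 74, 34 and 27 counts in siETV4 and 35, 14, 40 and 36 in siNC, with overlapping groups (log2 fold change 0.59, SE 0.41, edgeR adjusted p 0.55).

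CDKN1A encodes p21, the CDK inhibitor best known as a p53 target. It stood at 101, 108, 97.4 and 101 CPM in siETV4 and at 86.6, 92.2, 104 and 81.1 CPM in siNC. One siNC library, replicate 3, reached into the siETV4 range. Its log2 fold change was 0.16 (SE 0.10, 95% interval -0.05 to 0.38, edgeR adjusted p 0.493). A GC correction, in which each library's trend over the GC content and length of genes was fitted and taken out, is given for some genes. All members that it called are named further below. After this correction CDKN1A rose by 0.30 on the log2 scale (edgeR adjusted p 0.0362), and over the 21 alternatives its adjusted p ran from 0.0155 to 0.791, with 2 passing.

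The other CDK inhibitors differed little. CDKN1B, which encodes p27, had 43.5 to 49.9 CPM in siETV4 and 37.1 to 48.4 CPM in siNC (log2 fold change 0.14, SE 0.11). CDKN2A, a locus whose symbol covers both the p16INK4a and the ARF transcripts, had 55.6 to 74.0 CPM and 48.2 to 66.7 CPM (0.06, SE 0.13). These counts do not separate the p16INK4a and ARF transcripts. CDKN2C, which encodes p18INK4c, was the only tested inhibitor with a lower mean in siETV4, at 31.3 ± 2.67 against 36.8 ± 4.76 CPM (SD, n = 4 each), and differed by -0.23 on the log2 scale (SE 0.12, edgeR adjusted p 0.451). CDKN2D, encoding p19INK4d, was the lowest tested inhibitor at 8.04 ± 0.695 against 7.55 ± 0.908 CPM (SD, n = 4 each; 0.09, SE 0.14). For these 4 genes the siETV4 and siNC libraries overlapped, and none passed in any of the 21 alternative fits. The 6 tested inhibitors had a median log2 fold change of 0.12, with 5 values above 0.

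The remaining arrest genes are BTG2, GADD45A and PLK3. GADD45A, a stress sensor that binds PCNA and p21, stood at 84.3, 83.0, 88.4 and 88.1 CPM in siETV4 and 67.3, 80.2, 67.7 and 65.0 CPM in siNC. Its groups did not overlap, but siNC replicate 2 lay close to the siETV4 libraries. On the log2 scale the difference was 0.29 (SE 0.09, 95% interval 0.09 to 0.50), with an edgeR adjusted p of 0.278. After GC correction, GADD45A rose by 0.37 on the log2 scale (edgeR adjusted p 0.0402), with adjusted p values of 0.0104 to 0.718 over the 21 alternatives, of which 2 passed. BTG2, an antiproliferative gene of the BTG/TOB family, had 35.6 to 41.2 CPM in siETV4 and 29.5 to 36.8 CPM in siNC (0.24, SE 0.11, edgeR adjusted p 0.407). PLK3, a stress-response kinase, had 7.87 to 10.0 and 8.48 to 11.0 CPM (-0.08, SE 0.15). Over all 9 tested arrest genes, 7 log2 fold changes were above 0, and their median was 0.14.

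**Figure D3:**
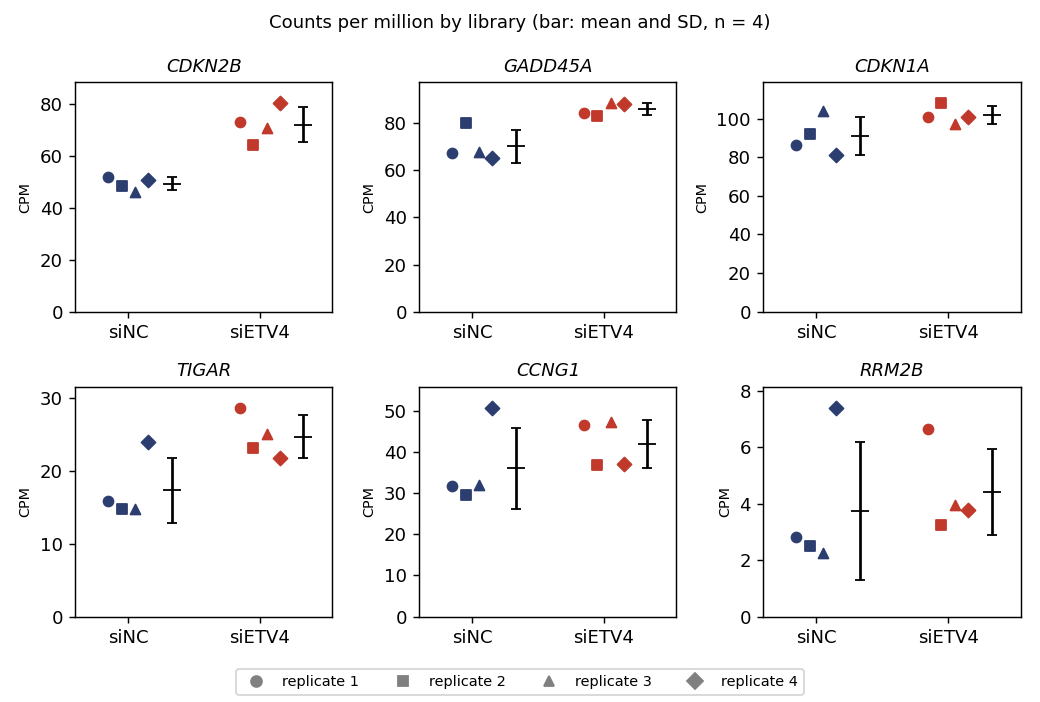
Normalised read counts (CPM) of CDKN2B, GADD45A, CDKN1A, TIGAR, CCNG1 and RRM2B in each library, with 1 marker shape per replicate number, and bars at the mean and SD of 4 libraries on axes that start at 0. CDKN2B and GADD45A are separated between the groups, while for TIGAR, CCNG1 and RRM2B siNC replicate 4 (24.0, 50.6 and 7.39 CPM) lies in or above the siETV4 range.

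Of the 10 apoptosis genes, 9 were tested. Their median log2 fold change was 0.06, with 6 values above 0, and the siETV4 and siNC libraries overlapped in all 9. BAX stood at 74.9, 91.7, 83.0 and 79.3 CPM in siETV4 and 76.6, 102, 92.6 and 71.5 CPM in siNC, and the groups covered much the same range (log2 fold change -0.06, SE 0.12, 95% interval -0.33 to 0.21). BBC3, which encodes the BH3-only protein PUMA, had 6.76 to 10.3 and 7.20 to 8.66 CPM (0.04, SE 0.17, 95% interval -0.34 to 0.41). Of the death receptors, TNFRSF10B (TRAIL receptor DR5) had 44.7 to 56.3 and 42.4 to 51.1 CPM (0.06, SE 0.11, 95% interval -0.18 to 0.30).

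FAS, the receptor of FAS ligand and one of the genes whose p53 element is printed above, had 9.45, 7.34, 10.8 and 7.10 CPM in siETV4. In siNC it had 5.98, 5.56, 4.53 and 9.79 CPM. Only siNC replicate 4 reached the siETV4 range. The log2 fold change was 0.42 (SE 0.24, edgeR adjusted p 0.481), and without siNC replicate 4 FAS rose by 0.69 (edgeR adjusted p 0.0269). After GC correction it was 0.26 (edgeR adjusted p 0.353). The adjusted p ran from 0.0269 to 0.84 over the 21 alternatives, with 1 passing.

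TP53INP1, a p53-induced nuclear protein linked to autophagy and cell death, had the largest log2 fold change of the members, 1.03 (SE 0.42, 95% interval 0.11 to 1.95, edgeR adjusted p 0.368). It rested on few counts, at 1.32, 1.11, 1.52 and 1.98 CPM in siETV4 and 1.05, 0.357, 0.352 and 1.11 CPM in siNC. Within siNC the libraries split into replicates 1 and 4, close to the lowest siETV4 value, and replicates 2 and 3, far below them. None of the 19 alternative fits that tested it passed. AEN, an exonuclease of apoptotic cells, TP53I3, a quinone oxidoreductase, and PHLDA3, a repressor of AKT, had log2 fold changes of -0.07 (SE 0.13), 0.12 (SE 0.16) and -0.07 (SE 0.12). PHLDA3 had a mean of 99.5 ± 12.1 CPM in the siETV4 libraries and of 104 ± 13.3 CPM in siNC (SD, n = 4 each).

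ZMAT3, an RNA-binding splicing regulator, varied more within the groups than between them. It stood at 14.0, 7.31, 14.1 and 10.9 CPM in siETV4 and at 10.5, 8.12, 7.35 and 14.8 CPM in siNC. The 3 highest libraries were siNC replicate 4 and siETV4 replicates 1 and 3. Between the groups it differed by 0.18 on the log2 scale (SE 0.26), and by 0.00 after GC correction.

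All 7 genes of DNA repair and redox control were tested, with 3 log2 fold changes above 0, 4 below 0 and a median of -0.03. TIGAR, a fructose bisphosphatase that lowers glycolysis and supports NADPH production, had 28.6, 23.1, 25.1 and 21.8 CPM in siETV4. In siNC it had 15.8, 14.8, 14.8 and 24.0 CPM. Replicates 1 to 3 of siNC lay close together and below all siETV4 libraries, and replicate 4 lay among the siETV4 libraries. TIGAR had a log2 fold change of 0.51 (SE 0.17, 95% interval 0.12 to 0.89, edgeR adjusted p 0.307).

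Without siNC replicate 4, TIGAR rose by 0.71 on the log2 scale (edgeR adjusted p 0.00774). After GC correction it was 0.42 over all 8 libraries (edgeR adjusted p 0.0623) and 0.49 without siNC replicate 4, where it passed (edgeR adjusted p 0.0128). These were the only 2 of the 21 alternatives that passed, and the largest adjusted p among them was 0.732. The siETV4 mean of TIGAR was the higher one in each of these fits, and its call rested on leaving out siNC replicate 4.

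DDB2, a damage sensor of nucleotide excision repair that holds a p53 element without a mismatch, had the smallest p of the members with a lower mean in siETV4. It had 57.1, 69.9, 64.6 and 59.2 CPM in siETV4 and 74.7, 80.7, 83.6 and 66.2 CPM in siNC. Only siNC replicate 4 fell within the siETV4 range. DDB2 had a log2 fold change of -0.28 (SE 0.11, 95% interval -0.52 to -0.05, edgeR adjusted p 0.345). Without siNC replicate 4 DDB2 fell by 0.35 (edgeR adjusted p 0.0312), and after GC correction the value was -0.20 (edgeR adjusted p 0.148). The adjusted p of DDB2 reached 0.76 over the 21 alternatives, and 1 of them passed.

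FDXR, the mitochondrial ferredoxin reductase, also had a lower mean, with 32.3, 42.5, 28.9 and 30.2 CPM in siETV4 and 40.0, 44.4, 45.8 and 35.0 CPM in siNC. The siETV4 replicate 2 reached the siNC range, and the log2 fold change was -0.30 (SE 0.15, edgeR adjusted p 0.411). XPC, which recognises DNA lesions in nucleotide excision repair, had 23.3 to 28.1 CPM in siETV4 and 23.1 to 28.5 CPM in siNC (-0.05, SE 0.12). SESN2, one of the sestrins that restrain mTORC1 under stress, had 18.8 to 22.6 and 16.2 to 24.6 CPM (-0.03, SE 0.14). The direction of SESN2 is not settled, since scaling by library size alone gave 0.01. Nor is it settled for XPC and the other members whose changes of sign are listed at the end. SESN1, the other sestrin listed, had 2.50 to 2.75 CPM in siETV4 and 1.21, 2.12, 2.68 and 4.12 CPM in siNC, with the highest in replicate 4 (0.05, SE 0.31).

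RRM2B, the p53-inducible subunit of ribonucleotide reductase, had 1 library of the siNC group far from the other 3. It had 2.83, 2.50 and 2.27 CPM in siNC replicates 1 to 3 and 7.39 CPM in replicate 4, the highest of all 8 libraries. The siETV4 libraries had 6.66, 3.23, 3.97 and 3.79 CPM, all between those siNC values. The log2 fold change was 0.23 (SE 0.38, 95% interval -0.59 to 1.06). Without siNC replicate 4 RRM2B rose by 0.80 (edgeR adjusted p 0.0464), without siETV4 replicate 1 the value was -0.04, and after GC correction it was 0.06 (edgeR adjusted p 0.933). The adjusted p of RRM2B reached 0.991 over the 21 alternatives, and 1 of them passed.

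The 3 feedback genes all had log2 fold changes above 0, with a median of 0.22. MDM2 stood at 23.0, 19.1, 26.6 and 23.4 CPM in siETV4 and 23.0, 18.0, 17.7 and 29.2 CPM in siNC, so that siNC held both its lowest and its highest library (0.07, SE 0.18, 95% interval -0.32 to 0.45). PPM1D, which encodes the phosphatase WIP1 that switches off p53 and ATM signalling, had 13.3, 9.46, 11.6 and 9.65 CPM in siETV4. In siNC it had 7.54, 8.30, 8.89 and 9.91 CPM, and only replicate 4 reached the siETV4 range. Its log2 fold change was 0.34 (SE 0.16, edgeR adjusted p 0.395), and none of the 21 alternatives passed. CCNG1, cyclin G1, which recruits a phosphatase to MDM2, had 46.6, 36.8, 47.1 and 37.0 CPM in siETV4 and 31.8, 29.4, 32.0 and 50.6 CPM in siNC. Its highest library of all 8 was siNC replicate 4, and the other siNC libraries lay below every siETV4 library.

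The log2 fold change of CCNG1 was 0.22 (SE 0.18, edgeR adjusted p 0.61). CCNG1 rose by 0.43 without siNC replicate 4 (edgeR adjusted p 0.0317) and was at -0.01 after GC correction (edgeR adjusted p 0.96), 1 of 21 alternatives passing. MDM2 went the same way, at 0.23 without siNC replicate 4 and -0.05 after GC correction. The median of the 3 feedback genes was 0.42 without siNC replicate 4 and -0.01 after GC correction.

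**Figure D4:**
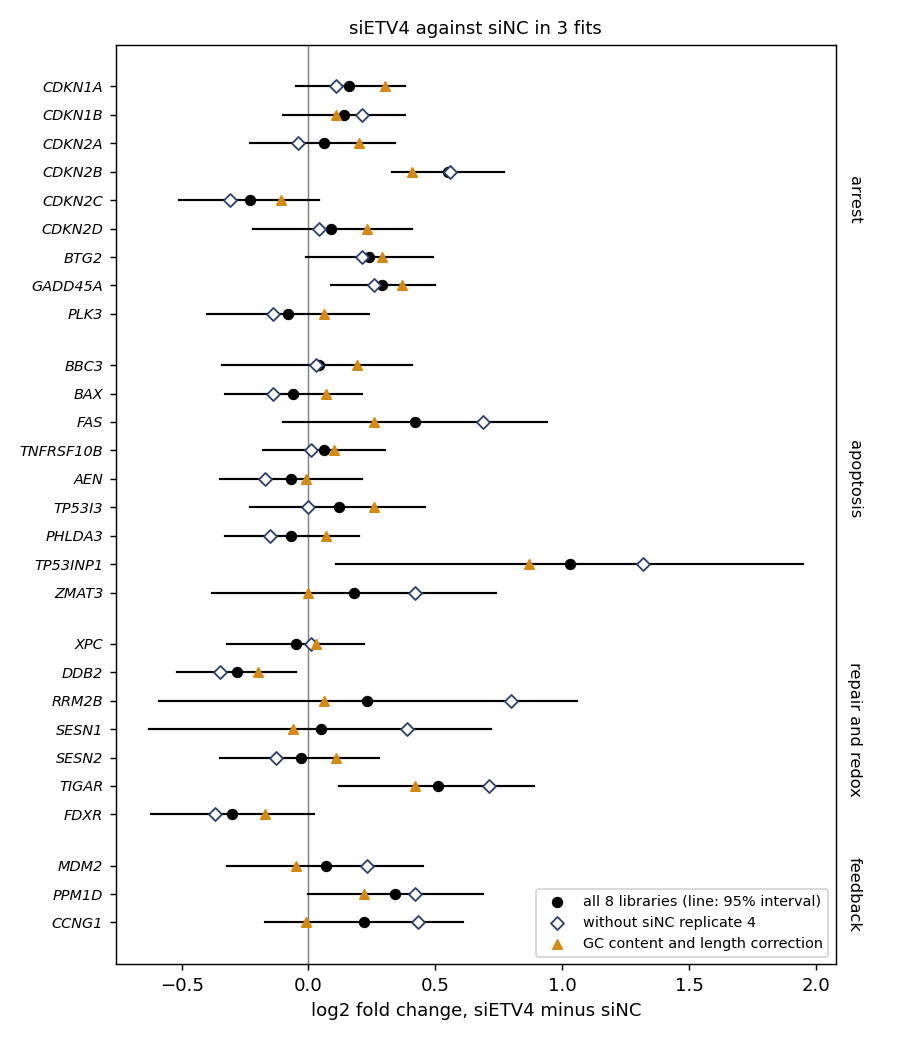
Log2 fold change (siETV4 minus siNC) of the 28 tested members by role, from all 8 libraries with its 95% interval, without siNC replicate 4, and after GC correction. CDKN2B lies between 0.41 and 0.56 in the 3 fits, while CCNG1, RRM2B and MDM2 move from 0.43, 0.80 and 0.23 without siNC replicate 4 to -0.01, 0.06 and -0.05 after GC correction.

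The last 3 members were too low to test. CDKN1C, the imprinted CDK inhibitor p57, had 1, 1, 0 and 1 counts in siETV4 and 1, 0, 0 and 1 in siNC. SPATA18, a regulator of mitochondrial quality, had 2, 1, 4 and 0 counts in siETV4 and 2, 6, 0 and 17 in siNC, with 17 of the 25 siNC counts in replicate 4. GDF15, a stress cytokine, had 11, 1, 1 and 0 counts in siETV4 and 1, 0, 0 and 0 in siNC. Its 13 siETV4 counts came almost all from replicate 1, so the libraries of 1 group did not repeat each other.

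Many members deviated together in siNC replicate 4, and the deviation went with their GC content. For each of the 28 genes the log2 CPM in siNC replicate 4 was set against the mean of the other siNC libraries. Over the members this deviation had a Spearman rho of -0.79 with the GC content of the longest transcript, beside -0.71 over 12470 tested genes with a GC content. These genes share the same 8 libraries and are no independent points. RRM2B, the member with the lowest GC content (36.4%), deviated by 1.53, and CDKN2A (61.4% GC) by -0.43.

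Split at their median GC content of 51.1%, the 14 members below it had siNC replicate 4 above the other 3 siNC libraries in 10 genes, and the 14 at or above it had siNC replicate 4 below them in 12 genes. Over all 28, siNC replicate 4 was above the rest in 11 (39.3%) and below in 15 (53.6%), where 37.1% and 37.9% of all tested genes were. Replicates 1 and 3 of siETV4 leaned the same way, with a rho of -0.70 and -0.75 between GC content and their deviation from the mean of all 8 libraries, while siETV4 replicate 4 was at -0.25, and siETV4 replicate 2 (0.49) and siNC replicates 1 to 3 (0.53 to 0.76) leaned the other way. The log2 fold change between the groups also went with GC content, at a rho of -0.66 over the members (-0.55 over all genes). The 14 low-GC members had a median log2 fold change of 0.23, with 13 above 0, and the 14 others had -0.04, with 6 above 0. The GC correction takes out each library's trend with GC content, so the rho of -0.05 after it follows from the method. It also takes out any difference between the siRNAs that goes with GC content.

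**Figure D5:**
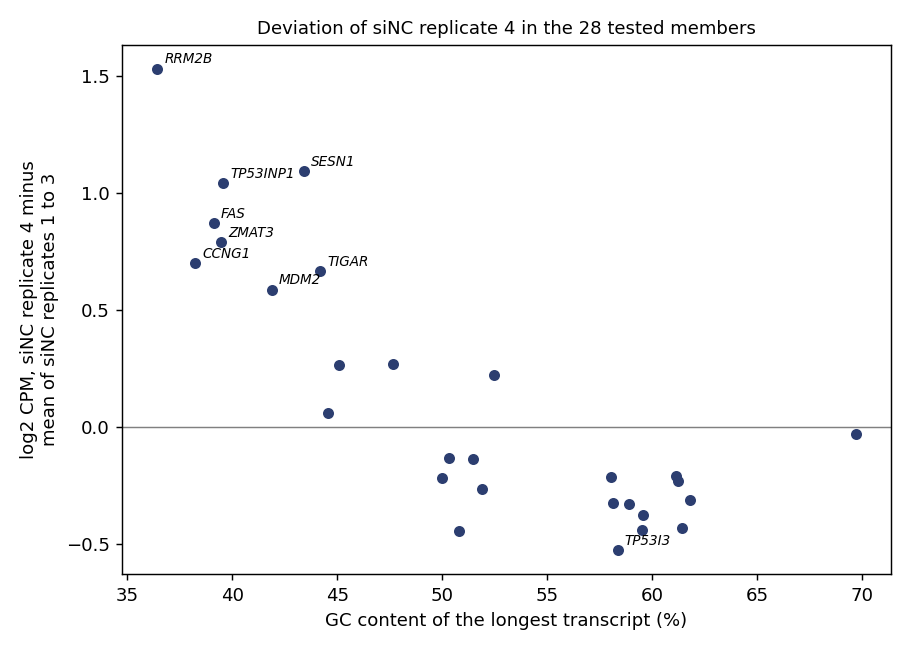
Difference in log2 CPM between siNC replicate 4 and the mean of siNC replicates 1 to 3 for the 28 tested members, against the GC content of the longest transcript in percent. Members below about 45% GC lie above 0, up to RRM2B at 1.53, and most members above 50% GC lie below 0, down to TP53I3 at -0.52.

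How many members were called depended on these settings. Without siNC replicate 4, 5 of 28 members rose (CDKN2B, FAS, RRM2B, TIGAR and CCNG1, 17.9%) and 1 fell (DDB2, 3.57%). Over all genes tested 12.0% rose and 4.88% fell (16.9% in all). In that fit the log2 fold change went more closely with GC content than over all 8 libraries. Its rho was -0.79 against -0.66 over the members, and -0.67 against -0.55 over all genes. After GC correction, CDKN1A, CDKN2B and GADD45A rose (10.7%) and 0 fell, beside 0.882% and 0.874% of all genes (1.76% in all). With both changes, TIGAR joined these 3 (14.3%), beside 2.98% of all genes higher and 3.45% lower (6.44% in all). FAS, RRM2B, CCNG1 and DDB2, called without siNC replicate 4, were not called after GC correction. CDKN2B was the only member called in all 3 of these settings. It was also the 1 member called by DESeq2 (1.64% of all genes), by edgeR without a filter on low counts (0.262%), by edgeR at an adjusted p under 0.1 (0.442%) and by limma on the FPKM values with either pseudocount (0.526%). The median log2 fold change of the members was 0.07, 0.10 and 0.14 in the 3 settings, beside -0.02, 0.00 and 0.00 over the genes of the full test.

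Other genes of the pathway were taken from 3 lists and read against the share of all tested genes called in the same test, 0.236%. The genes named were chosen for the smallest p in their list, so groups without overlap in them follow partly from that choice. In the order of the lists below, 1 of 18, 3 of 27 and 0 of 22 tested genes had higher siETV4 groups without overlap (2.62% of all genes). Lower siETV4 groups without overlap were found in 0, 0 and 1 (3.93% of all genes). In a list of 18 members of the p53 family and its regulators, 0 were called, and the median log2 fold change was 0.06. COP1, a ubiquitin ligase for p53, had 37.9 to 44.1 CPM in siETV4 and 30.9 to 33.7 CPM in siNC, without overlap (0.33, SE 0.10, edgeR adjusted p 0.273). It passed after GC correction (0.38, edgeR adjusted p 0.0438), and over its 21 alternatives the adjusted p ran from 0.0282 to 0.742.

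Among 32 further p53 targets, 27 were tested, 0 were called, and the median log2 fold change was 0.09. PLK2, a stress-induced kinase related to PLK3, had 340, 300, 356 and 306 CPM in siETV4 and 207, 235, 206 and 270 CPM in siNC. Its groups did not overlap, at 0.50 (SE 0.11, edgeR adjusted p 0.11), and it passed after GC correction (0.46, edgeR adjusted p 0.023; 0.000768 to 0.429 over 21 alternatives). TRIM22, an interferon-induced p53 target, had 58.2 to 80.3 CPM in siETV4, 30.3 to 33.5 CPM in siNC replicates 1 to 3, and 66.1 CPM in siNC replicate 4 (0.72, SE 0.23, edgeR adjusted p 0.277). Without siNC replicate 4 TRIM22 rose by 1.06 (edgeR adjusted p 0.000611), and after GC correction over all 8 libraries it was at 0.56 (edgeR adjusted p 0.0655). Its adjusted p reached 0.732 over the 21 alternatives, of which 2 passed.

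The 22 cyclins, CDKs and retinoblastoma family genes, the machinery on which the CDK inhibitors act, were all tested. Of these 0 were called, and the median log2 fold change was 0.08. E2F2, an activator of S-phase genes, had 29.1, 30.5, 27.4 and 31.5 CPM in siETV4 and 43.5, 39.2, 44.2 and 39.7 CPM in siNC. Every siETV4 library lay below every siNC library (-0.49, SE 0.10, edgeR adjusted p 0.11), and E2F2 fell by 0.36 after GC correction (edgeR adjusted p 0.0191; 0.000932 to 0.442 over 21 alternatives). CDK1, the mitotic kinase, had 146 to 204 CPM in siETV4 and 113, 125, 136 and 189 CPM in siNC, the last in replicate 4 (0.36, SE 0.16, edgeR adjusted p 0.394). CDK1 stood at 0.53 without siNC replicate 4 (edgeR adjusted p 0.0149) and at 0.12 after GC correction (edgeR adjusted p 0.417).

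Of the members, CDKN1A, CDKN2A, FAS, TNFRSF10B, TP53I3, TP53INP1, XPC and MDM2 also overlap a gene on the opposite strand. Their counts may hold reads of those neighbours, for the same reason. The 4 genes with a p53 element in a promoter window, AEN, DDB2, FAS and MDM2, had log2 fold changes of -0.07, -0.28, 0.42 and 0.07. They were not called in the main test, and the signs of AEN and MDM2 changed under some alternatives. The 6 genes with an ETS core ranged from -0.30 for FDXR to 0.16 for CDKN1A.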

How the data were processed

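The authors deposited whole-number read counts and FPKM values (counts scaled by gene length and library total, as tested on the table) for 34415 gene symbols in 8 libraries; the submitters' processing notes list the build hg38 and R 3.2.0. The sources used here do not name an aligner, a counter, an annotation or a strand setting.

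Counts were tested with edgeR 4.0.16 in R 4.3.3 (filterByExpr with a minimum count of 10, TMM scaling, quasi-likelihood test with the siRNA as the only term, Benjamini-Hochberg adjustment over 13572 genes, threshold 0.05). Positive log2 values mean higher in siETV4, and CPM values use TMM-scaled library sizes. Alternatives were no filter, scaling by RLE factors or by library size alone, a minimum of 1 CPM in 4 libraries, limma-voom (limma 3.58.1), DESeq2 1.42.0, a replicate block, omission of each library, an adjusted p under 0.1, limma-trend on log2 of FPKM plus 1 or 0.1 (mean of at least 0.5, or no filter), and GC correction alone, with the block or without siNC replicate 4. This correction adds offsets from splines (5 degrees of freedom) of each library over GC content and over gene length. GC content, from the longest GENCODE v29 transcript, was found for 91.9% of tested genes and all 28 tested members. The tests were also run on simulated counts without shifts between libraries that go with GC content. That run therefore does not bear on calls that depend on such shifts.

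All members are accounted for; of each list of other pathway genes, those past the threshold are named, or the 2 with the smallest p where fewer than 2 passed, and 1 gene that this rule takes is not reported here. No rule on values chose the members, but members, roles and lists were drawn up with earlier results of these data known. Spreads are between cultures of one line.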

Additional observations from a re-analysis of the deposited data

Results flagged for a closer look

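In 68 groups of 4 libraries (each tested member and named gene in each siRNA group), 5 had a highest or lowest library set apart from the other 3 by Dixon's 95% criterion, where chance gives about 1 group in 20. Of these, 4 lay in siNC replicate 4. RRM2B stood at 7.39 CPM there against 2.27 to 2.83 CPM in the other siNC libraries. TIGAR stood at 24.0 CPM against 14.8 to 15.8 CPM, and CCNG1 at 50.6 CPM against 29.4 to 32.0 CPM. Outside the members, TRIM22 stood at 66.1 CPM against 30.3 to 33.5 CPM. The other was XPC in siETV4 replicate 4, at 28.1 CPM against 23.3 to 23.7 CPM in the other siETV4 libraries.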

How the results depend on the processing

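The count of called members, 0 in the main test, was 1 with DESeq2, without the filter on low counts, at an adjusted p under 0.1, and with log2(FPKM + 1) or log2(FPKM + 0.1) at a mean of at least 0.5. CDKN2B was that gene each time. The count was 3 with GC correction, 4 with the correction without siNC replicate 4, and 0 to 6 when 1 library was left out, with 6 only for siNC replicate 4. For the 18 tested genes of p53 family and regulators the count was 1 with DESeq2, 1 with the correction, 2 with the correction without siNC replicate 4 and 0 to 5 over libraries left out. For the 27 further p53 targets it was 1, 1, 3 and 0 to 7, and for the 22 cyclins, CDKs and RB family genes 1, 1, 3 and 0 to 4. Over all genes the shares called were 1.64%, 1.76%, 6.44% and, without siNC replicate 4, 16.9%. The cause of these shifts was not tested.

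Samples with the same replicate number deviated together in 1 of 4 pairs (r = 0.296 for replicate 2). The others had r of -0.09, -0.138 and -0.187. Pairs with unlike numbers reached 0.391 (siETV4 replicate 1 with siNC replicate 4) and -0.396 (siETV4 replicate 2 with siNC replicate 4). Shifts with GC content enter these values, so they cannot show whether cultures with the same number shared a day or batch. With the replicate block 0 members were called, the genes called fell from 32 to 4, and CDKN2B had 0.55 (edgeR adjusted p 0.213). With the correction and the replicate block together 100 genes were called and 0 members, so the 3 corrected calls were lost, at edgeR adjusted p values of 0.0874 for CDKN1A, 0.0897 for CDKN2B and 0.0946 for GADD45A.

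No member that changed sign under an alternative was called there. With the correction alone, with the block and without siNC replicate 4, in that order, PLK3 was at 0.06, 0.05 and 0.08, BAX at 0.07, 0.07 and 0.07, PHLDA3 at 0.07, 0.07 and 0.05, XPC at 0.03, 0.04 and 0.14, SESN2 at 0.11, 0.11 and 0.06, and MDM2 at -0.05, -0.06 and -0.07. CCNG1 was at -0.01 in the first and second, ZMAT3 at -0.01 in the second and SESN1 at -0.06 in the first. SESN2 was at 0.01 with library size alone and 0.02 in the 3 FPKM tests. With 1 library left out, values ran from -0.04 to 0.12 for CDKN2A, -0.09 to 0.12 for BBC3, -0.14 to 0.04 for BAX, -0.01 to 0.11 for TNFRSF10B, -0.17 to 0.01 for AEN, -0.12 to 0.01 for XPC, -0.04 to 0.80 for RRM2B, -0.19 to 0.39 for SESN1, -0.13 to 0.06 for SESN2 and -0.02 to 0.23 for MDM2.

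With 4 libraries a group and shifts between libraries that went with GC content, the standard errors of the members' log2 fold changes were 0.09 to 0.42. The 1.46-fold difference of CDKN2B missed the threshold. Genes near 1 CPM, such as TP53INP1, were the least precise.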
